A study of Mus musculus with 18 samples.

Results

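Hox genes encode homeodomain transcription factors that lie in 4 clusters, Hoxa, Hoxb, Hoxc and Hoxd, and they were followed here in 2 regions of the mouse nervous system. Every array probe set with a single gene symbol made of Hox, a cluster letter and a paralog number was taken, whatever its signal. This gave 37 of the 22626 probe sets tested, for 31 of the 39 Hox genes of the RefSeq gene table. The Hoxa cluster had 12 probe sets for 9 genes, Hoxb 10 for 9 genes, Hoxc 8 for 6 genes and Hoxd 7 for 7 genes. Another 3 probe sets that carry a Hox symbol among several symbols, and 1 for an antisense transcript, were left out.

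The study set the oculomotor nucleus, a midbrain group of motor neurons that moves the eyes, beside the cervical spinal cord in a mouse model of amyotrophic lateral sclerosis (ALS). Total RNA was labelled and hybridised to Affymetrix Mouse Expression Set 430A arrays. The groups were oculomotor nucleus from mutants of 10 weeks, mutants of 6 weeks and controls of 10 weeks, and spinal cord from the same 3 kinds of mouse, with 3 arrays each. The labels do not name the mutation, the strain, the sex or the genotype of the controls, do not say whether animals were pooled or whether replicates are separate animals, and give no control of 6 weeks. P-values therefore measure the spread between these arrays, which may be technical.

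Control spinal cord replicate 1 was left out: over all probe sets its log2 signals correlated at 0.01 with those of the other arrays, while those 17 arrays correlated at 0.96 to 0.98 with each other. That group therefore holds 2 arrays. Values are linear signals, each array scaled to a trimmed mean of 500.1 to 500.2, and the median signal of an array lay between 207.1 and 226.1. A fold change is a difference of log2(signal + 25), with the oculomotor nucleus, the mutant or the older age on top. A probe set was called where limma's p, adjusted by Benjamini-Hochberg over all 22626 probe sets, was under 0.05. The offset of 25 shrinks differences of dim probe sets, and 15 of the 37 Hox probe sets had an oculomotor median signal below it, against 5 with such a spinal cord median. For these the size of a fold change depends on the offset.

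Within a cluster, genes lie in the order of their paralog numbers, and the embryo reads them along the body axis in that order. Low numbers are active up to the hindbrain and high numbers only towards the tail, and in the cord the mix of Hox proteins sets which motor neuron columns and pools form. The midbrain and forebrain develop in front of the Hox domain, where other homeodomain genes such as Otx2 and En1 act. Many Hox genes stay transcribed in the adult hindbrain and cord.

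RefSeq promoter windows (GRCm38.p6) covered 18 of the 31 measured genes, with 20 windows of 250 bases directly before a transcription start. The 3 shown belong to genes of different place in the cluster and different result: Hoxd8 and Hoxa7, from the middle, were far lower in the oculomotor nucleus, and Hoxd13, the tail end gene, was dim in both regions. They lie at chr2:74704365-74704614 (plus strand), chr6:52218574-52218823 (minus strand) and chr2:74667975-74668224 (plus strand). Capitals mark AGGTCA, the half-site of nuclear receptors such as those for retinoic acid, in Hoxd8, TTTATG, the core that caudal (CDX) proteins bind, in Hoxa7, and overlapping matches to TATAAA, the TATA box core, on the 2 strands in Hoxd13.
Hoxd8: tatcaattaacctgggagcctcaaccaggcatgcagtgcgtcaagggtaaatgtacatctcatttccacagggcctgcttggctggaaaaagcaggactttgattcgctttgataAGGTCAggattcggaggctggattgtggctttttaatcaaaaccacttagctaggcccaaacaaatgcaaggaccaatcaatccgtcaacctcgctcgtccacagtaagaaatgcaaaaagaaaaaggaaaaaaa
Hoxa7: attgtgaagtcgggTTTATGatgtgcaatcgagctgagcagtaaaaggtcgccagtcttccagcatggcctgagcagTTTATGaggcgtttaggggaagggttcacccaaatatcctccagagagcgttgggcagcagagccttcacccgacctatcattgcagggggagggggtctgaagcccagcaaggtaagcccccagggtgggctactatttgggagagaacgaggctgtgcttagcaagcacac
Hoxd13: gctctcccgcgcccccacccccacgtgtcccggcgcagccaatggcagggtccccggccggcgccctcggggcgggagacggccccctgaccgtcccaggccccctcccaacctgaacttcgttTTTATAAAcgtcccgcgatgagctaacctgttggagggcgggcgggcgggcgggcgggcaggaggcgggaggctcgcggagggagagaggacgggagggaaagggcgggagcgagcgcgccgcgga
On either strand, AGGTCA was in 4 of the 20 Hox windows, against 14% of all 32851 mouse windows of that length. TTTATG was in 2 of 20 (10.8% of all windows), TATAAA in 2 of 20 (12.4%), and TGATNNAT, the composite site of HOX with PBX, in 3 of 20 (7.7%). The printed windows differ in CG dinucleotides, with 6 in Hoxd8, 7 in Hoxa7 and 31 in Hoxd13. The median was 13 in the Hox windows and 6 in all windows. The 13 windows of genes lower in the oculomotor nucleus had 3 to 28 CG dinucleotides, the 7 windows of genes that were not called had 2 to 35, and both medians were 13. A motif match is a description of these letters and not a bound site.

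Over the mean of the 3 kinds of mouse, 27 of the 37 Hox probe sets (73.0%) were lower in the oculomotor nucleus, against 12.2% of all probe sets, and 0 of 37 were higher, against 13.1%. The 27 stood for 22 of the 31 genes, and 25 of them fell at least 2-fold (67.6%, against 1.06% of all probe sets). Of the 16 probe sets on the whole array that fell at least 8-fold (0.0707%), 9 were Hox probe sets. The median log2 fold change of the 37 Hox probe sets was -1.54, and it was 0.02 over all probe sets. On 24 of the 37 (64.9%) every one of the 9 oculomotor arrays lay below every one of the 8 spinal cord arrays, as did 3.47% of all probe sets. In bulk tissue, fewer cells that express a gene and less of its RNA per cell cannot be told apart.

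**Figure D1:**
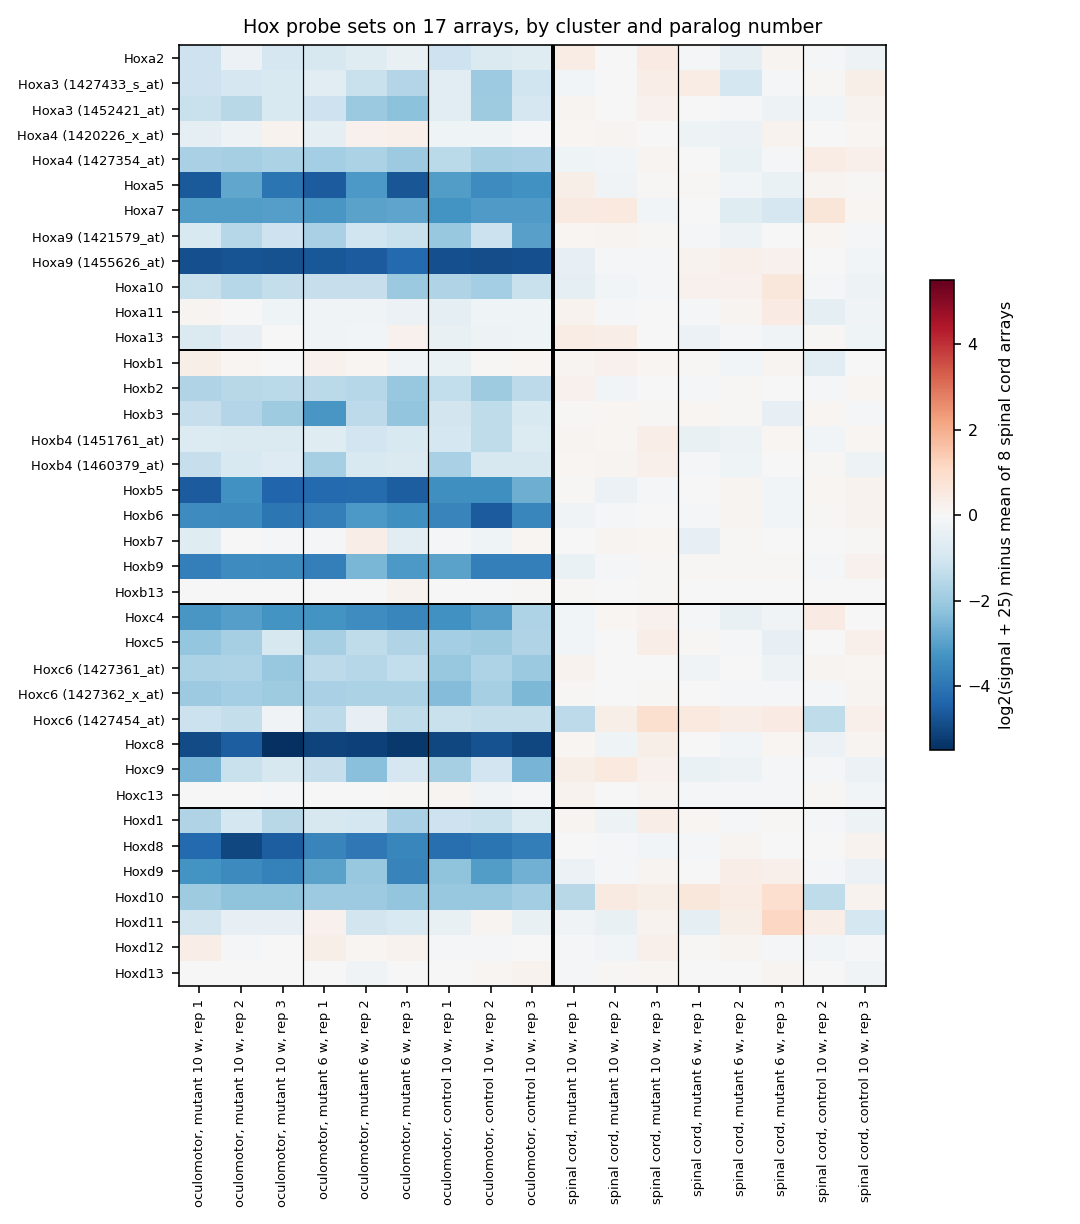
Log2(signal + 25) of the 37 Hox probe sets (rows, by cluster and paralog number) on the 17 arrays (columns), as the difference from that probe set's mean over the 8 spinal cord arrays. Blue is lower: the 9 oculomotor columns are mostly blue for the 27 called probe sets and near white for most others. Single oculomotor arrays are near white for called probe sets that overlapped between regions, such as Hoxa2 and Hoxc6 1427454_at. Hoxd10 and 1 Hoxc6 probe set are also pale blue on 2 spinal cord arrays.

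The differences were largest for genes in the middle of the clusters, up to paralog 9. Of the probe sets for paralogs 1 to 3, the head end genes, 6 of 7 fell, with a median log2 fold change of -1.19. For paralogs 4 and 5 it was 7 of 8 with a median of -1.76, for paralogs 6 to 8 it was 7 of 8 with -2.55, and for paralog 9 it was 5 of 5 with -2.99. Of paralogs 10 to 13, the tail end genes, 2 of 9 fell and the median was -0.16. By cluster, 9 of 12 Hoxa, 7 of 10 Hoxb, 7 of 8 Hoxc and 4 of 7 Hoxd probe sets fell. Over the mean of the 3 kinds of mouse 12.2% of all probe sets were lower. The share was 22.2% for paralogs 10 to 13, 85.7% to 100% for the other classes and 57.1% to 87.5% for the clusters. These class counts mix genes of different signal, and no test compared the classes.

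**Figure D2:**
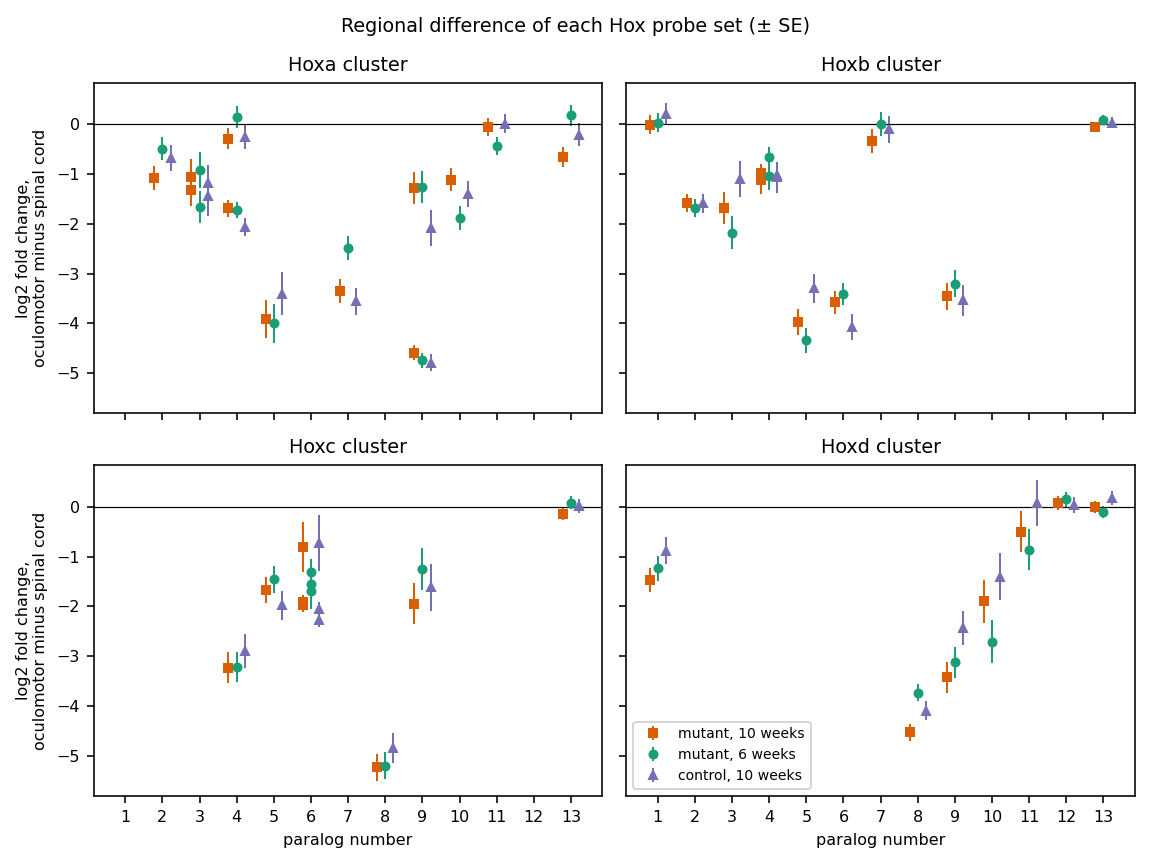
Log2 fold change (oculomotor nucleus minus spinal cord, ± SE) of each Hox probe set against its paralog number, for mutants of 10 weeks, mutants of 6 weeks and controls of 10 weeks, in a panel for each cluster. Probe sets that fell in 1 kind of mouse mostly fell in all 3, though the points of Hoxd10 spread over -2.70 to -1.40 and those of Hoxa7 over -3.56 to -2.48. The points reach -5.23 for Hoxc8 in mutants of 10 weeks, and lie near 0 at paralogs 12 and 13 except for Hoxa13 in mutants of 10 weeks (-0.66).

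Among paralogs 6 to 8, which include genes of the brachial and thoracic cord, Hoxc8 had the largest difference of all Hox probe sets. Hoxc8 takes part in setting the motor neuron pools that serve the forelimb. Its oculomotor signals were 30.3, 47.8 and 1.0 in mutants of 10 weeks, 24.2, 23.5 and 17.4 in mutants of 6 weeks and 27.6, 36.5 and 27.7 in controls. Its spinal cord signals were 1789, 1409 and 2085 in mutants of 10 weeks, 1700, 1525 and 1825 in mutants of 6 weeks and 1315 and 1848 in controls. The 2 regions lay far apart, and 1 of the 9 oculomotor arrays was near 0. The log2 fold change was -5.08 ± 0.16 (SE, 9 against 8 arrays, limma adjusted p = 1.86e-12), and it was -3.81 with an offset 4 times as large.

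Hoxd8, a gene of the trunk, had oculomotor signals of 41.7, 15.2 and 31.5 in mutants of 10 weeks, 79.1, 60.8 and 82.5 in mutants of 6 weeks and 48.3, 53.7 and 66.8 in controls. In spinal cord they were 1288, 1192 and 1127 in mutants of 10 weeks, 1180, 1425 and 1247 in mutants of 6 weeks and 1276 and 1438 in controls. The lowest spinal cord signal, 1127, was far above the highest oculomotor signal, 82.5, at a log2 fold change of -4.11 ± 0.10 (limma adjusted p = 7.15e-14). Hoxb6, whose product patterns the thoracic region, had oculomotor signals of 65.8, 63.4 and 38.3 in mutants of 10 weeks, 49.4, 85.3 and 69.7 in mutants of 6 weeks and 55.1, 16.8 and 57.8 in controls. Its spinal cord signals were 856.5, 938.2 and 988.1 in mutants of 10 weeks, 938.4, 1066 and 858.6 in mutants of 6 weeks and 1020 and 1126 in controls. The regions did not overlap, and the log2 fold change was -3.68 ± 0.14 (limma adjusted p = 1.03e-11).

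Hoxa7 had a lowest, median and highest signal of 5.8, 10.0 and 14.7 over the 9 oculomotor arrays and of 130.7, 285.8 and 443.2 over the 8 spinal cord arrays. Its log2 fold change was -3.13 ± 0.14 (limma adjusted p = 1.26e-10), or -1.81 with the larger offset, since all oculomotor signals lay below 25. Hoxc6, a gene of forelimb-level motor neurons, had 3 probe sets. Probe set 1427361_at had 124.0, 169.0 and 221.9 (lowest, median and highest) in oculomotor nucleus and 491.4, 611.0 and 693.8 in spinal cord. Probe set 1427362_x_at had 107.5, 173.9 and 195.1 in oculomotor nucleus and 643.1, 695.9 and 777.0 in spinal cord. Both were fully apart between regions, at log2 fold changes of -1.76 ± 0.08 and -1.98 ± 0.08, while the dim 1427454_at, described with Hoxd10, overlapped. Hoxb7 was not called: it ran from 45.3 to 118.7 in oculomotor nucleus and over 57.0 to 99.8 in spinal cord, at -0.15 (95% interval -0.46 to 0.16).

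The 5 probe sets of paralog 9 all fell. Paralog 9 genes are active in the thoracic cord, where Hoxc9 holds back the forelimb motor neuron programme. Hoxa9 probe set 1455626_at had oculomotor signals of 6.1, 7.1 and 6.7 in mutants of 10 weeks, 9.8, 12 and 19.9 in mutants of 6 weeks and 5.8, 4.7 and 5.9 in controls. Its spinal cord signals were 612.9, 795.1 and 811.1 in mutants of 10 weeks, 968.7, 1043 and 1017 in mutants of 6 weeks and 866.0 and 767.6 in controls. Every oculomotor signal was below the offset and every spinal cord signal at or above 612.9, at a log2 fold change of -4.70 ± 0.09 (limma adjusted p = 6.80e-15), or -3.12 with the larger offset.

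The other Hoxa9 probe set, 1421579_at, had 55.8, 244.1 and 333.6 in oculomotor nucleus and 497.5, 625.8 and 674.4 in spinal cord (lowest, median and highest). It was also separate between regions but fell less, at -1.54 ± 0.19. Hoxb9 had 7.9, 14.8 and 52.8 in oculomotor nucleus and 322.8, 439.8 and 496.8 in spinal cord, at -3.40 ± 0.16. Hoxd9 had 7.8, 26.4 and 77.2 in oculomotor nucleus and 321.6, 403.6 and 544.3 in spinal cord, at -2.99 ± 0.19, just short of 8-fold. Hoxc9 had 21.8, 89.3 and 123.8 in oculomotor nucleus and 193.2, 236.1 and 380.2 in spinal cord, at -1.60 ± 0.25. The regions were apart for each of these genes, and the adjusted p values in limma ran up to 0.000144, that of Hoxc9.

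Among paralogs 4 and 5, genes of the caudal hindbrain and cervical cord, Hoxb5 and Hoxa5 fell most; Hoxa5 and Hoxc5 are known for their part in the phrenic motor neurons that drive breathing. Hoxb5 had oculomotor signals of 16.6, 73.5 and 23.2 in mutants of 10 weeks, 25.5, 26.8 and 17.7 in mutants of 6 weeks and 69.5, 69.8 and 127.2 in controls. Its spinal cord signals were 1004, 755.0 and 924.8 in mutants of 10 weeks, 958.0, 1046 and 859.4 in mutants of 6 weeks and 1034 and 1095 in controls. The regions were apart, at -3.87 ± 0.16 (limma adjusted p = 2.42e-11).

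Hoxa5 had oculomotor signals of 12.7, 102.4 and 32.6 in mutants of 10 weeks, 14.6, 79.8 and 10.8 in mutants of 6 weeks and 85.9, 58.7 and 66.6 in controls. Its spinal cord signals were 1139, 797.5 and 957.1 in mutants of 10 weeks, 947.7, 824.1 and 704.4 in mutants of 6 weeks and 1016 and 935.6 in controls. Oculomotor signals varied widely among arrays of a group and still lay below all spinal cord signals, at -3.77 ± 0.23 (limma adjusted p = 4.76e-09). Hoxc4 had 7.1, 15.4 and 97.0 in oculomotor nucleus and 271.8, 362.2 and 505.0 in spinal cord (lowest, median and highest), at -3.11 ± 0.18. Hoxc5 had 2.7, 9.2 and 40.6 in oculomotor nucleus and 62.6, 96.4 and 130.0 in spinal cord, at -1.70 ± 0.16.

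Hoxb4 and Hoxa4 pattern the neck region and had 2 probe sets each. The Hoxb4 probe sets were similar, with 59.3, 103.4 and 116.6 and with 33.0, 89.1 and 103.2 in oculomotor nucleus against 143.4, 215.8 and 265.3 and 144.5, 187.7 and 229.5 in spinal cord, at -0.89 ± 0.11 and -1.08 ± 0.17. The Hoxa4 probe sets were not. Hoxa4 1427354_at had 4.8, 9.4 and 17.2 in oculomotor nucleus and 66.6, 89.9 and 135.0 in spinal cord and fell by 1.83 on the log2 scale, while 1420226_x_at had 6.1 to 30.2 in oculomotor nucleus and 10.9 to 25.6 in spinal cord and was not called (-0.14, 95% interval -0.41 to 0.14).

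**Figure D3:**
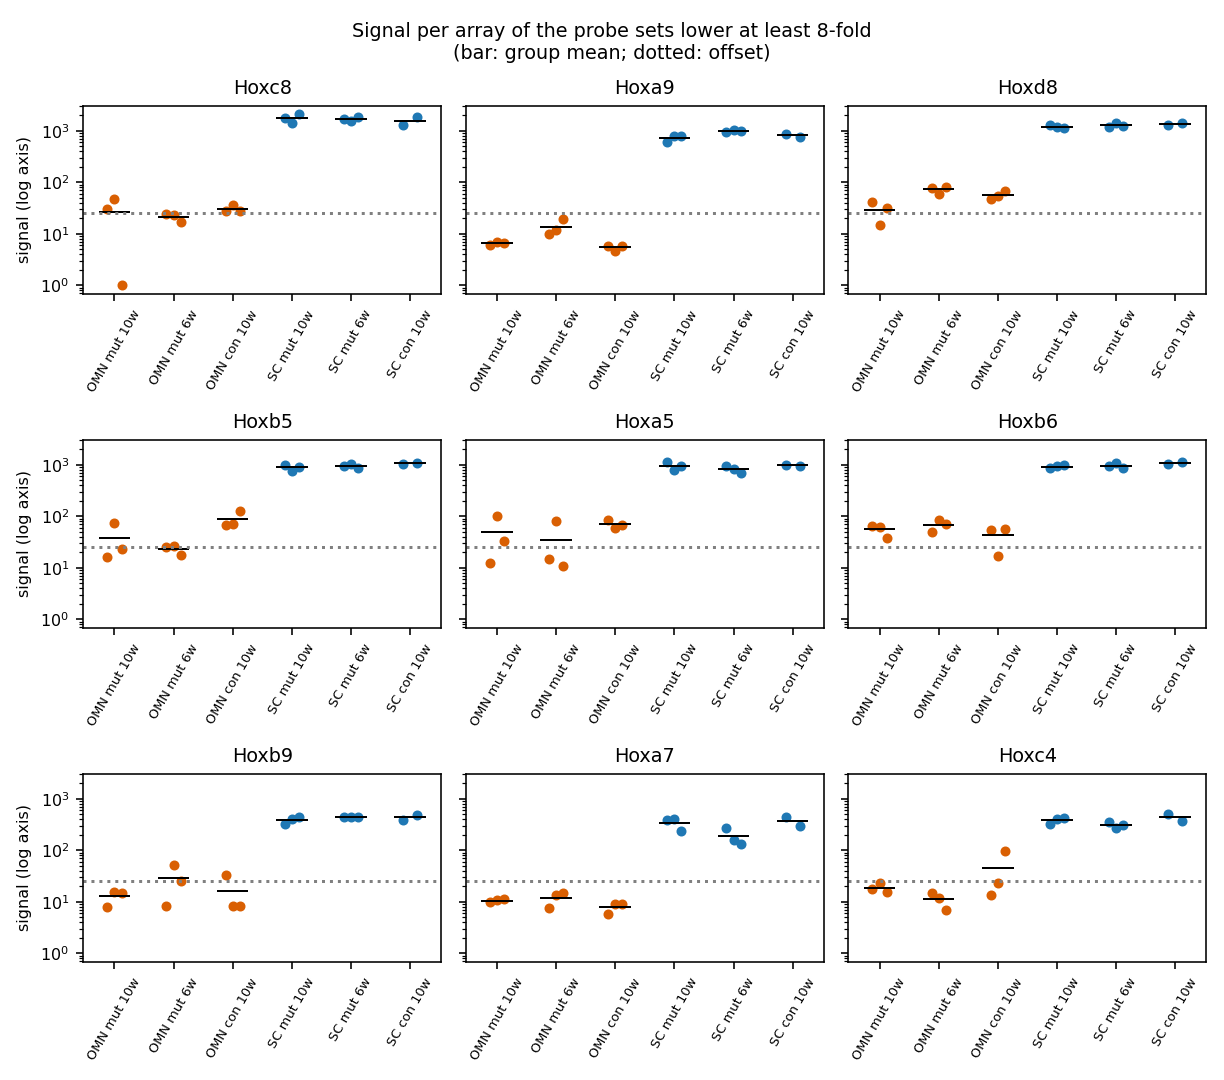
Signal (log axis) of the 9 Hox probe sets that fell at least 8-fold, on each array of the 6 groups, oculomotor nucleus (OMN, orange) left of spinal cord (SC, blue), with group means as bars and the offset of 25 dotted. In each panel all orange points lie below all blue points, and Hoxa9 (1455626_at) and Hoxa7 lie below the dotted line in every oculomotor array.

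Among paralogs 1 to 3, genes of the hindbrain that help set its segments, Hoxb2 had the highest median oculomotor signal. Hoxb2 had 127.8, 200.6 and 228.4 in oculomotor nucleus and 562.4, 612.2 and 744.8 in spinal cord (lowest, median and highest), at -1.62 ± 0.10 (limma adjusted p = 7.26e-09). Oculomotor medians of that size were also found at higher paralog numbers, with 244.1 for Hoxa9 1421579_at and 173.9 for Hoxc6 1427362_x_at. Whether these signals reflect expression was not tested. Hoxb3 had 7.3, 86.3 and 140.3 in oculomotor nucleus and 193.3, 288.1 and 299.1 in spinal cord, at -1.66 ± 0.20. Hoxb2 and Hoxb3 were both lower on every oculomotor array.

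The 2 Hoxa3 probe sets fell by 1.14 and 1.39 on the log2 scale. Their oculomotor signals were 17.2, 53.5 and 85.9 for 1427433_s_at and 15.1, 57.5 and 100.2 for 1452421_at, against 60.9, 150.0 and 196.3 and 132.1, 163.9 and 196.7 in spinal cord, so that the regions overlapped on the first alone. Hoxd1 had 2.8, 18.2 and 30.3 in oculomotor nucleus and 52.7, 70.1 and 96.8 in spinal cord, at -1.19 ± 0.15, and Hoxa2, which sets the identity of the second pharyngeal arch, overlapped between regions and fell by 0.75. Hoxb1, the marker of the fourth hindbrain segment in the embryo, ran from 35.8 to 73.2 in oculomotor nucleus and over 28.4 to 68.9 in spinal cord and was not called (0.07, 95% interval -0.18 to 0.32).

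Of paralogs 10 to 13, genes of the lumbar and sacral levels and of the limb and tail, Hoxa10 and Hoxd10 fell. Both are known for their part in lumbar motor neurons and the hindlimb. Hoxa10 had 13, 37.8 and 42.8 in oculomotor nucleus and 87.5, 122.6 and 215.4 in spinal cord, at -1.47 ± 0.14 (limma adjusted p = 7.87e-07). Hoxb13, Hoxc13, Hoxd12 and Hoxd13 stayed below the offset of 25 on all 17 arrays, and their 95% intervals all lay within -0.17 and 0.27 on a scale that the offset compresses. Hoxa11, with 81.7 to 145.3 in oculomotor nucleus and 85.6 to 186.2 in spinal cord, had an interval of -0.39 to 0.06. Hoxa13 (-0.49 to 0.03) and Hoxd11 (-0.96 to 0.09) were not called either, and the interval of Hoxd11 reaches close to 2-fold.

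Hoxd10 had oculomotor signals of 7.8, 2.2 and 2.0 in mutants of 10 weeks, 6.3, 6.8 and 2.9 in mutants of 6 weeks and 4.7, 5.1 and 8.4 in controls. Its spinal cord signals were 19.3, 154.9 and 131.7 in mutants of 10 weeks, 169.1, 141.7 and 212.3 in mutants of 6 weeks and 22.3 and 117.5 in controls. The low spinal cord values were those of replicate 1 of the mutants of 10 weeks and replicate 2 of the controls. Hoxd10 fell by 2.00 ± 0.26 on the log2 scale (limma adjusted p = 1.86e-05), and had a log2 fold change of -2.48 without these 2 arrays, a setting added after the values were seen.

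The same 2 arrays were low for Hoxc6 1427454_at, at 4.9 and 5.7, against 73.3 to 126.0 on the other 6 spinal cord arrays. Its oculomotor signals, with 5.3, 8.0 and 45.5 as lowest, median and highest, overlapped with these. Its log2 fold change was -1.03 ± 0.30 (limma adjusted p = 0.0195), and -1.53 without the 2 arrays. The call was lost without control spinal cord replicate 3 (-0.75, limma adjusted p = 0.101) and without the 2 oculomotor arrays of high pituitary hormone signal (-0.95, adjusted p = 0.0607). Of all probe sets, 5 (0.0221%) were under 25 on both of these arrays and over 50 on the other 6, the other 3 being those of Ccr10, Lrp6 and Gli2. The brighter Hoxc6 probe sets and Hoxa10 did not share the pattern. These probe sets were singled out after their values were seen, and the origin of the pattern was not tested.

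**Figure D4:**
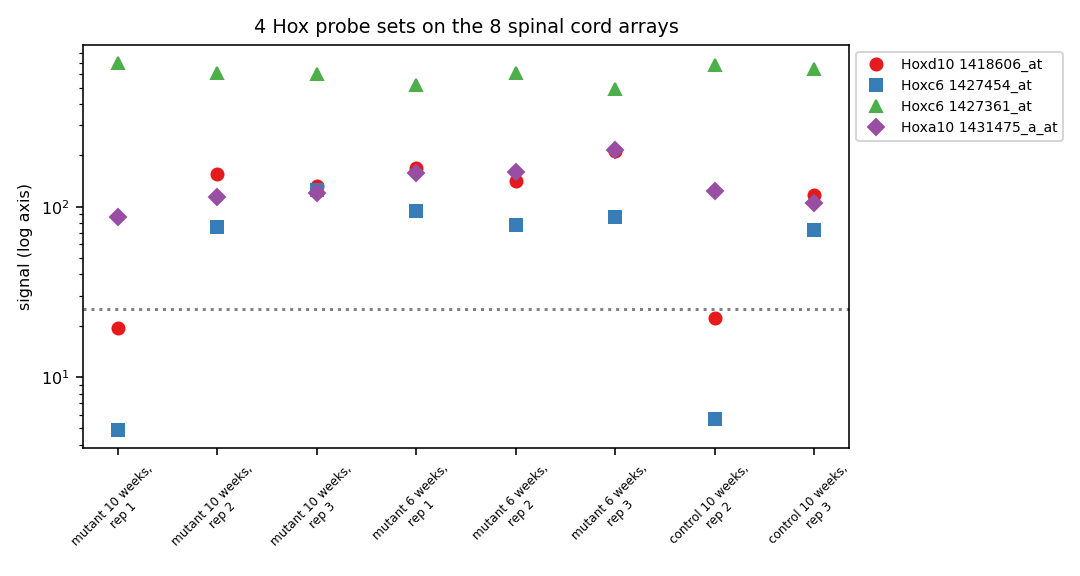
Signal (log axis) of Hoxd10, Hoxa10 and 2 probe sets of Hoxc6 on the 8 spinal cord arrays, with the offset of 25 dotted. Hoxd10 and Hoxc6 1427454_at drop below the line on replicate 1 of the mutants of 10 weeks and replicate 2 of the controls, where Hoxc6 1427361_at and Hoxa10 do not.

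The regional difference was present in each kind of mouse. In mutants of 10 weeks 26 of 37 Hox probe sets were lower in the oculomotor nucleus (6.45% of all probe sets), in mutants of 6 weeks 23 of 37 (7.45%) and in controls of 10 weeks 21 of 37 (4.12%); 0 were higher in any. In all 3 kinds of mouse 19 of the 37 were called, in 2 kinds 5, in 1 kind 3 and in none 10. This overlap was not counted over all probe sets, so it has no share to be set against. Among the 3 called once was Hoxa13, called lower in mutants of 10 weeks with an adjusted p of 0.0479, though not over the mean. The log2 fold change of Hoxc8 was -5.23 in mutants of 10 weeks, -5.19 in mutants of 6 weeks and -4.84 in controls. For Hoxb5 it was -3.97 in mutants of 10 weeks, -4.34 in mutants of 6 weeks and -3.30 in controls.

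No Hox probe set was called for a regional difference that changed with genotype or age. The genotype by region difference at 10 weeks called 0 of 37 in limma, and 0% of all probe sets. An unadjusted p under 0.05 was found for 1 of 37, against 1427 of all 22626 probe sets. The age by region difference in mutants also called 0 of 37, and 0% of all probe sets. Here 5 of 37 had an unadjusted p under 0.05, against 3220 of all 22626. The 95% intervals of the members reached -1.98 and 1.81 for genotype and -1.95 and 2.24 for age on the log2 scale, so that the arrays leave changes of that size within the error for the probe sets of widest spread, among them Hoxd9, Hoxc9, Hoxa9 1421579_at and the dim Hoxc6 1427454_at.

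Nor was any Hox probe set called between mutants and controls of 10 weeks. In the oculomotor nucleus 0 of 37 were called in limma (0.522% of all probe sets), and the 95% intervals ran between -1.53 and 1.58. An unadjusted p under 0.05 was found for 4 of 37, against 2685 of all 22626 probe sets. Hoxd8 had the smallest p: its mutant signals, given above, all lay below those of controls, at -0.60 ± 0.17 (95% interval -0.96 to -0.25, limma adjusted p = 0.132). Hoxb5, at the signals given above, was 0.93 ± 0.26 lower in mutants on the log2 scale (95% interval -1.48 to -0.38, limma adjusted p = 0.132), and 1 mutant array lay within the range of the controls. The Hoxb5 difference was called without replicate 2 of the mutants of 10 weeks (-1.31, limma adjusted p = 0.0190), an array of high pituitary hormone signal. Without replicate 2 of the controls Hoxa9 1421579_at was called higher in mutants (1.37, limma adjusted p = 0.0431), against 0.91 and an adjusted p of 0.234 with all arrays. In the spinal cord 0 of 37 were called (0.0221% of all), with intervals between -0.96 and 1.68. There 1 of 37 had an unadjusted p under 0.05, against 2570 of all 22626 probe sets. A rule of the study's kind, every pair of arrays in 1 direction and over 2-fold, gave 0 in both regions with the offset in the fold. This form of the rule was not counted over all probe sets, so its 0 has no share to be set against. With the fold taken on signals with no offset, a setting added after the values were seen, the rule took 1 of 37 in the oculomotor nucleus (2.11% of all probe sets) and 0 in the spinal cord (4.22%). The 1 was Hoxd9, with signals of 19.7, 13.9 and 7.8 in mutants against 70.2, 26.4 and 46.0 in controls, which limma did not call (-0.87 ± 0.31, adjusted p = 0.249).

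Between ages in mutants the count was again 0 of 37. In the oculomotor nucleus (0.0221% of all probe sets called) 2 had an unadjusted p under 0.05, against 1949 of all 22626 probe sets. Hoxd8 came nearest, with signals of 41.7, 15.2 and 31.5 at 10 weeks against 79.1, 60.8 and 82.5 at 6 weeks; the groups did not overlap, the log2 difference was -0.89 ± 0.17 and the limma adjusted p 0.0777. In the spinal cord (1.18% of all probe sets called) 4 had an unadjusted p under 0.05, against 3760 of all 22626 probe sets. Hoxa7 had signals of 389.2, 401.7 and 242.8 at 10 weeks against 272.7, 161.0 and 130.7 at 6 weeks, which overlapped, at a log2 difference of 0.82 ± 0.24 and a limma adjusted p of 0.107. The pairwise rule with the offset, again not counted over all probe sets, gave 0 in both regions. With no offset it took 3 of 37 in the oculomotor nucleus (1.74% of all probe sets), all lower at 10 weeks, and 0 in the spinal cord (2.38%). The 3 were Hoxd8 (mean signals 29.5 at 10 weeks and 74.1 at 6 weeks), Hoxa9 1455626_at (6.63 and 13.9 at these ages) and Hoxb13 (1.67 and 3.50), of which Hoxa9 1455626_at and Hoxb13 lay below the offset on every oculomotor array. The genotype and age comparisons share the arrays of mutants of 10 weeks.

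Lists of the proteins that Hox factors bind DNA with, and of genes upstream of them, held calls in both directions, as did all probe sets (12.2% lower and 13.1% higher). Of 9 measured TALE homeodomain cofactors and partners, 3 fell over the mean of the 3 kinds of mouse: Meis1 (-0.95 ± 0.18), Pknox1 (-0.55 ± 0.08) and Pbxip1 (-0.53 ± 0.07), which encodes a PBX-binding protein. Meis3 (0.44 ± 0.08) and Pbx3 (0.25 ± 0.05) rose, and the list's median was 0.08, against 0.02 over all probe sets. Of 17 genes upstream of Hox or of retinoic acid handling, 4 fell and 2 rose (median -0.18). Crabp1, which binds retinoic acid in the cytoplasm, fell by 1.75 ± 0.17 and Aldh1a2, which makes retinoic acid, by 1.15 ± 0.12. Aldh1a2 is also counted below among the genes of meninges and fibroblasts. Egr2, a hindbrain segment factor, fell by 0.88, and Otx2, the midbrain and forebrain factor, rose by 2.24 ± 0.18.

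The called chromatin regulators of the clusters changed by at most 0.61 on the log2 scale. Polycomb complexes keep Hox genes silent, and of 17 measured members 2 rose, Ring1 (0.35 ± 0.09) and Jarid2 (0.25 ± 0.07), and 1 fell, Phc2 (-0.35 ± 0.06), at a median of -0.03, shares no higher than the 13.1% and 12.2% of all probe sets. Trithorax group proteins keep Hox genes active. Of 9 measured genes, Trithorax members and demethylases together, 3 rose (13.1% of all probe sets) and 0 fell (12.2%), at a median of 0.08. Kmt2a, the histone methyltransferase MLL1, rose by 0.61 ± 0.08 and Psip1, which tethers MLL1 to chromatin, by 0.39 ± 0.07. Kdm1a, one of the demethylases of the list, rose by 0.19 ± 0.05.

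The nearest measured genes outside the clusters lay 6.7 to 1589 kb away and moved in both directions. Of the 40 nearest measured genes, 5 on each side of each cluster, 7 were lower and 7 higher in the oculomotor nucleus, with a median of 0.02 (over all probe sets 12.2% were lower and 13.1% higher). The steepest fall was that of Skap2, 143 kb beyond the low-numbered end of the Hoxa cluster (-0.77 ± 0.07, limma adjusted p = 7.93e-07). Nfe2l2, a stress response factor 910 kb beyond the Hoxd1 end, fell by 0.67 ± 0.06. Atf2 and Chn1, 776 and 893 kb beyond the Hoxd13 end, rose by 0.46 ± 0.06 and 0.32 ± 0.04. Evx1 (-0.04) and Evx2 (-0.13), homeobox genes at the tail ends of Hoxa and Hoxd, were not called. No test compared the flanking genes with the Hox genes.

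**Figure D5:**
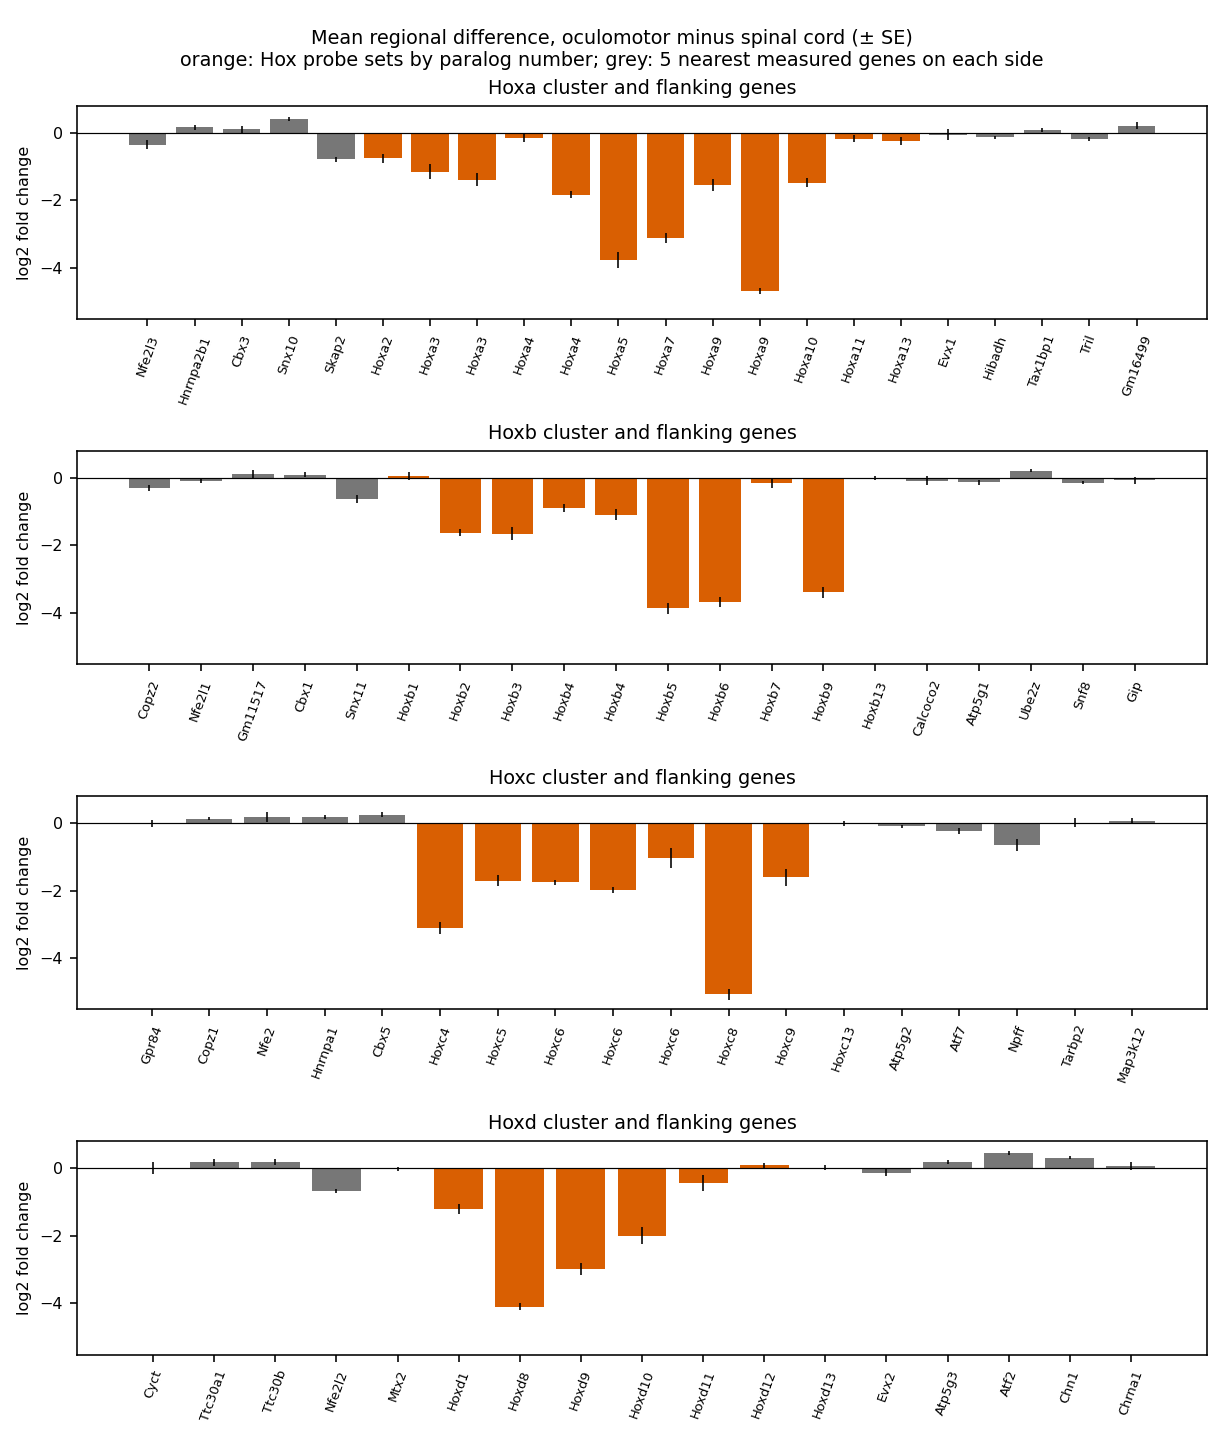
Log2 fold change over the mean of the 3 kinds of mouse (oculomotor nucleus minus spinal cord, ± SE) of the Hox probe sets (orange, by paralog number) and of the 5 nearest measured genes on each side (grey), in a panel for each cluster. Orange bars reach -5.08, and no grey bar goes below -0.77.

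Some other genes that mark the dissected tissue also differed over the mean of the 3 kinds of mouse. Of all probe sets, 12.2% were lower in that comparison and 13.1% higher. Genes of dopamine neurons, which lie near the oculomotor nucleus, were higher there for 5 of 5 measured genes, with sums of 5692 to 7738 on oculomotor arrays and 730.2 to 1044 on spinal cord arrays. Of the oculomotor markers analysed here, neither Phox2a (0.06) nor Isl1 (-0.77) was called. Of 7 motor neuron genes 6 were lower, with sums of 3068 to 4311 on oculomotor arrays and 8914 to 10475 on spinal cord arrays. Of 10 genes of meninges and fibroblasts 10 were lower, with sums of 2756 to 3840 on oculomotor arrays and 6238 to 11546 on spinal cord arrays. The lowest signal of any of these 10 was 18.7, for Slc6a13 on an oculomotor array, which is below the offset of 25. Of 4 pan-neuronal genes 1 was higher and 0 lower, of 3 oligodendrocyte genes 2 were lower, and of 4 muscle genes none was called. Of 4 pituitary genes 2 were higher, and their sum was highest on replicate 2 of the oculomotor mutants of 10 weeks (23307) and replicate 3 of the oculomotor controls (6305), against 217.6 to 433.3 on spinal cord arrays. The part of these cell types in the Hox differences was not tested.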

How the data were processed

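The deposited table holds intensity signals on a linear scale, which the authors computed with Affymetrix Microarray Suite 5.0 (MAS5 per the submitters' processing notes). Present and absent calls were not used here. Of 22690 probe sets, 64 controls were removed, 25 (5% of the 2% trimmed mean) was added and log2 taken, with no further normalization and no filter on signal, so that dim Hox probe sets were tested. The annotation table of the array gave 1 symbol to 20380 probe sets, several to 691 and none to 1555. A mean for each of 6 groups was fitted to 17 arrays with limma 3.58.1 in R 4.3.3 (eBayes with a trend), and p was adjusted over 22626 probe sets within each of 10 contrasts. The number of arrays limits the precision. The fit was tested on simulated data.

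Per-array signals are given for Hox probe sets that fell at least 2-fold, as lowest, median and highest where groups are pooled to 9 and 8 arrays. Other lists are represented by the probe set of highest mean signal per gene, with up to 4 genes of smallest p named. Pbx3, Evx1 and Evx2 are named beyond that, after their values were seen. The Hox genes, lists, contrasts and the array left out were chosen with earlier results of these data known. Alternatives covered the offset, scaling, filter, trend, arrays used, the block on replicate number and leaving out each array. Arrays of the same number in different groups did not deviate together (correlation of deviations -0.06 to 0.10, with 0 of 40 pairs over 0.1), so the numbers were not taken to pair samples.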

Additional observations from a re-analysis of the deposited data

How the results depend on the processing

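Of the 37 Hox probe sets, the counts lower in mutants of 10 weeks, mutants of 6 weeks, controls and the mean of the 3 were 26, 23, 21 and 27. A filter that removes the 40% of probe sets of lowest signal left 9 Hox probe sets, and 9 were called in each of the 4 comparisons. A 60% filter left 2, and 2 were called in each. High spinal cord signal helps a probe set pass, so these counts support nothing. With all 18 arrays 15 were called in mutants of 10 weeks. Leaving out 1 array gave 23 to 26, 21 to 25, 17 to 23 and 26 to 27. With the replicate number as a block, which the arrays do not bear out as pairs, the counts were 26, 24, 21 and 27, and 0 in every genotype, age and interaction comparison. Under the other settings the counts stayed within 1.5 times those given. The genotype count in the oculomotor nucleus was 1 without both arrays of high pituitary hormone signal (Hoxb5, -1.08, limma adjusted p = 0.0247) and 0 to 1 when 1 array was left out. It was 1 (Hoxb5) without replicate 2 of the mutants, and 1 (Hoxa9 1421579_at, 1.37, limma adjusted p = 0.0431) without replicate 2 of the controls. The other Hoxa9 probe set lay below the offset on every oculomotor array. The cause of these changes in count was not tested. The remaining genotype, age and interaction counts were 0 whichever array was left out. On signals with no offset the pairwise rule gave 1 for genotype and 3 for age in the oculomotor nucleus. No called value changed sign, while 6 uncalled mean regional differences did or became 0, among them Hoxa4 1420226_x_at (0.05 with values floored at the offset) and Hoxb1 (-0.03 without control spinal cord replicate 2). Hox signals near the offset limit the size of the fold changes.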
